A study of Mus musculus with 48 samples.

Results

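Myelin is the lipid-rich membrane that oligodendrocytes wrap around axons. A set of 34 genes of myelin and of the mature oligodendrocytes that make it was followed in RNA from mouse astrocytes. The members were chosen by gene symbol, and all 34 were found among the 24421 symbols of each of 6 tables. By role they comprised 11 genes of myelin sheath proteins, 4 of enzymes that make myelin lipids, 6 of regulators, receptors and stage genes, and 13 that oligodendrocytes express strongly but that other brain cells may express too.

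Oligodendrocytes arise from precursors that divide, exit the cycle, pass through a short premyelinating stage and then wrap axons. In mouse forebrain this takes place mostly after birth. The sheath is built from a few very abundant proteins and from galactolipids, and the transcription factors SOX10, MYRF and OLIG2 act at successive steps of the programme. Astrocytes lie beside these cells, and some members, such as Car2, Sirt2 and Qdpr, are also found in other glia.

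The 48 bulk RNA-seq libraries were labelled as astrocytes of cortex, hippocampus or olfactory bulb. Developmental groups were P1, P7 and P14 (postnatal days 1, 7 and 14), with 3 libraries each except cortex P14 with 4, and no genotype or treatment in their labels. At P28 the labels gave Gabbr1 control and Gabbr1 cKO, a conditional knockout of a GABA-B receptor subunit, with 4 control and 4 cKO libraries from cortex, 2 control and 4 cKO from hippocampus, and 3 of each from olfactory bulb. Tamoxifen was named as a treatment for all P28 hippocampus and olfactory bulb libraries of both genotypes, and in cortex for control replicates 3 and 4 and cKO replicate 4. Those 3 cortical libraries carry labels of another style and later sample numbers, and are called the second round of deposit. The other 5 cortical libraries form the first round. Sample numbers in the P28 titles run on across regions and genotypes, and the labels do not say whether neighbouring numbers share an animal. The labels gave neither the Cre driver, the way the astrocytes were isolated, nor whether animals were pooled.

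Each library held between 1773226 and 15008466 reads on genes. At P28 Gabbr1 was lower in every cKO than in every control library of each region, at 89.8 to 211 against 927 to 1930.1 normalized reads in cortex, 152 to 379.9 against 779.8 to 824 in hippocampus and 63.6 to 99.5 against 184 to 318 in olfactory bulb. Normalized reads are read counts divided by 1 factor per library. The limma adjusted p was 4.4e-05, 0.936 and 0.877, so that the difference passed the threshold in cortex only. The 10 astrocyte markers, among them Slc1a2, Slc1a3 and Aldoc, had summed levels from 5549 to 7447 in olfactory bulb P1 up to 509125 to 568948 in cortex P14. The ribosomal gene Rn45s held 13.7% to 38.0% of reads in 46 libraries, 0.594% in replicate 2 of the hippocampal cKO and 0.476% in replicate 2 of the olfactory bulb control.

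Promoter sequences are shown because most members moved together with age. RefSeq promoter windows (GRCm38.p6, 250 bases before to 50 after the start) were found for 24 of the 34 members, in 33 windows. The windows were searched on both strands for the SOX core (ACAAAG or ACAATG), the MYRF core (CTGGCAC or CTGGTAC), the OLIG E-box (CAGCTG) and the TATA box (TATAAA). None of these motifs contains another, and a match describes letters only. Of the matched sheath genes, the 4 with the most kinds of motif in the window, then the most matches, are printed from 5′ to 3′ up to the annotated start, with the matches in capitals (CTTTGT is the SOX core on the other strand).
Opalin, chr19:41077114-41077363, - strand: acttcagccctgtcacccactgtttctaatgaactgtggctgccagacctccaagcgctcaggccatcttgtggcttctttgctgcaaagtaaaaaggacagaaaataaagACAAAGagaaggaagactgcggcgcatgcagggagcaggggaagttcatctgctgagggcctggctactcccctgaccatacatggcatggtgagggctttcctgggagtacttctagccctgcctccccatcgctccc
Cnp, chr11:100574689-100574903, + strand: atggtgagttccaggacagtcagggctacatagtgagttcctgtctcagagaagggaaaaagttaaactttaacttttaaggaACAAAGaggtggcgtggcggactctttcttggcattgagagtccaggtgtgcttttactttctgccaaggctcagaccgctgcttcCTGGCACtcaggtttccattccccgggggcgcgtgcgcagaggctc
Mag, chr7:30914874-30915113, - strand: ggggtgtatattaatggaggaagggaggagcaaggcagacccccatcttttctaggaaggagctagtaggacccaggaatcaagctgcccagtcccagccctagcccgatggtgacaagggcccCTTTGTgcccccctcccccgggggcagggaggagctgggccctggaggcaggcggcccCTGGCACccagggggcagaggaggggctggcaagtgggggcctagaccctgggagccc
Mobp, chr9:120149492-120149706, + strand: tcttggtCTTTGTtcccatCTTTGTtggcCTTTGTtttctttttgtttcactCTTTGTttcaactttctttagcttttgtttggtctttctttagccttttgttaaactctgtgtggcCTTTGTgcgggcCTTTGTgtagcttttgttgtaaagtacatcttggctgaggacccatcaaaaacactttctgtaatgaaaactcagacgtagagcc
In these stretches Cnp and Mag each carried 1 SOX core and 1 MYRF core, Mobp carried 6 SOX cores and Opalin carried 1. The SOX core was in 39.4% of the 33 member windows and in 28.6% of all 32851 windows. The MYRF core was in 18.2% and 7.1%, the OLIG E-box in 18.2% and 16.3%, and the TATA box in 3.03% and 13.6%.

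In the cortex most members rose between P1 and P14. A gene was tested where its mean over a table was at least 10 normalized reads, and called at a limma adjusted p under 0.05. Of the 34 members 29 were tested, 25 were higher at P14 than at P1 and 1 was lower, where 24% of all 11822 genes were higher and 40.3% lower. The median log2 change was 2.95 over the tested members and -0.27 over all genes. Opalin, Gal3st1, Nkx6-2, Tmem125 and Ppp1r14a were too low to test. Some members, among them Mobp, Mag, Mog, Ermn, Cldn11, Fa2h and Adamts4, passed this filter only through their P14 libraries. The filter fixed or favoured their rise to P14, and they count in these numbers. In bulk RNA, fewer cells of a type and less RNA per cell cannot be told apart. The labels do not say that replicates came from separate animals, so p-values measure the spread between these libraries, which may be technical.

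Mbp, whose product compacts the inner faces of the myelin membrane, had the highest level per length in cortex at P14. There its normalized reads were 53.4, 37.8 and 40.3 at P1, 123, 200.3 and 209 at P7, and 10638, 20290.2, 15227 and 17735 at P14. No ages overlapped, and the P14 libraries stood far above all others. The log2 change was 1.97 ± 0.23 (SE) from P1 to P7 and 6.48 ± 0.22 from P7 to P14, with limma adjusted p of 2.74e-05 and 9.43e-10. Divided by exon length, Mbp stood at 1886 normalized reads per kb at P14, followed by Car2 at 1207. At P1 the highest members were Car2 (143 per kb) and Sirt2 (113 per kb).

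Mobp, another protein of compact myelin, was 0, 0.252 and 0 in the cortical libraries at P1. At P7 it was 0.577, 3.87 and 0.906 normalized reads, and P14 gave 1015, 1313, 1094 and 1388. Nearly all of its reads lay in the P14 libraries. The log2 change from P7 to P14 was 8.93 ± 0.36, with a limma adjusted p of 4.26e-09. Mobp passed the filter only through its P14 libraries, so this rise is no test. The step from P1 to P7 was called at 1.18 ± 0.39 (limma adjusted p = 0.0317), at a level of a few reads. That call was lost in 7 of 10 fits that left out 1 library, with adjusted p up to 0.131. It was also lost under 5 of 10 other settings, with a change as low as 0.26 and adjusted p up to 0.466.

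Mag, an adhesion protein of the membrane next to the axon, was 0.852, 0.252 and 0 at P1 and 0.577, 2.32 and 3.17 at P7 in cortex. It was 59.4, 38.4, 29 and 30.1 at P14, at least 46-fold above P1 when P1 is set to the level of 3 reads. The limma adjusted p of Mag for P14 against P7 was 5.98e-05, for a gene that passed the filter only through its P14 libraries. Opalin, a transmembrane protein of oligodendrocytes, was 0 in all P1 and P7 libraries of the 3 regions, and 5.67, 6.29, 0 and 0.519 in cortex P14.

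Mog, which sits on the outermost layer of the sheath, followed another course. It was 16.2, 18.9 and 8.21 at P1, 1.15, 0.773 and 3.63 at P7, and 52.2, 29.6, 11 and 19.2 at P14. Values at P7 lay lowest, and P1 overlapped P14. Mog fell from P1 to P7 (log2 change -2.49 ± 0.58, limma adjusted p = 0.00499) and rose from P7 to P14 (3.27 ± 0.55, limma adjusted p = 0.000272). It passed the filter only with its P14 libraries, which favoured the second change. Zfp57, a zinc-finger gene that neighbours Mog and was looked at after these values were seen, was 652, 555 and 431 at P1, 114, 48.7 and 121 at P7 and 10.6, 0, 3.15 and 9.86 at P14. Whether the authors' counting used strand is not given in the sources used here, and the part of Zfp57 reads in the Mog values was not tested.

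Mal, Ermn and Cldn11 were called higher in cortex from P7 to P14 and not from P1 to P7. Mal, a sorting protein of myelin membranes, was 5.97, 17.6 and 11.5 at P1, 19.6, 5.41 and 7.7 at P7, and 134, 206, 132 and 138 at P14. Ermn, a cytoskeletal protein of late oligodendrocytes, was 5.4 to 11.8 at P1, 3.17 to 4.64 at P7 and 54.9 to 71.9 at P14. Cldn11, which forms tight junctions between myelin layers, was 2.56 to 12.3, 8.08 to 12.2 and 49.2 to 96.5 at the same ages. For these 3 genes P14 lay above both earlier ages without overlap. Their log2 changes from P7 to P14 were 3.84 ± 0.41 for Mal, 3.71 ± 0.33 for Ermn and 2.73 ± 0.43 for Cldn11. Ermn and Cldn11 passed the filter only through their P14 libraries, which favoured their rise.

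Cnp, an enzyme of uncompacted myelin, Pllp, a membrane-spanning protein, and Tspan2, a tetraspanin, were called higher at both steps. Cnp was 242, 303 and 259 at P1, 629, 615 and 449 at P7 and 1166, 1232, 1161 and 1309 at P14. Its ages did not overlap. Tspan2 was 28.1 to 54.4, 48.7 to 94.3 and 269.6 to 412, and its call from P1 to P7 was lost in 4 of 10 fits with a library left out (adjusted p up to 0.149). Pllp was 7.95 to 11.9, 19.9 to 30.2 and 51.7 to 83.

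**Figure D1:**
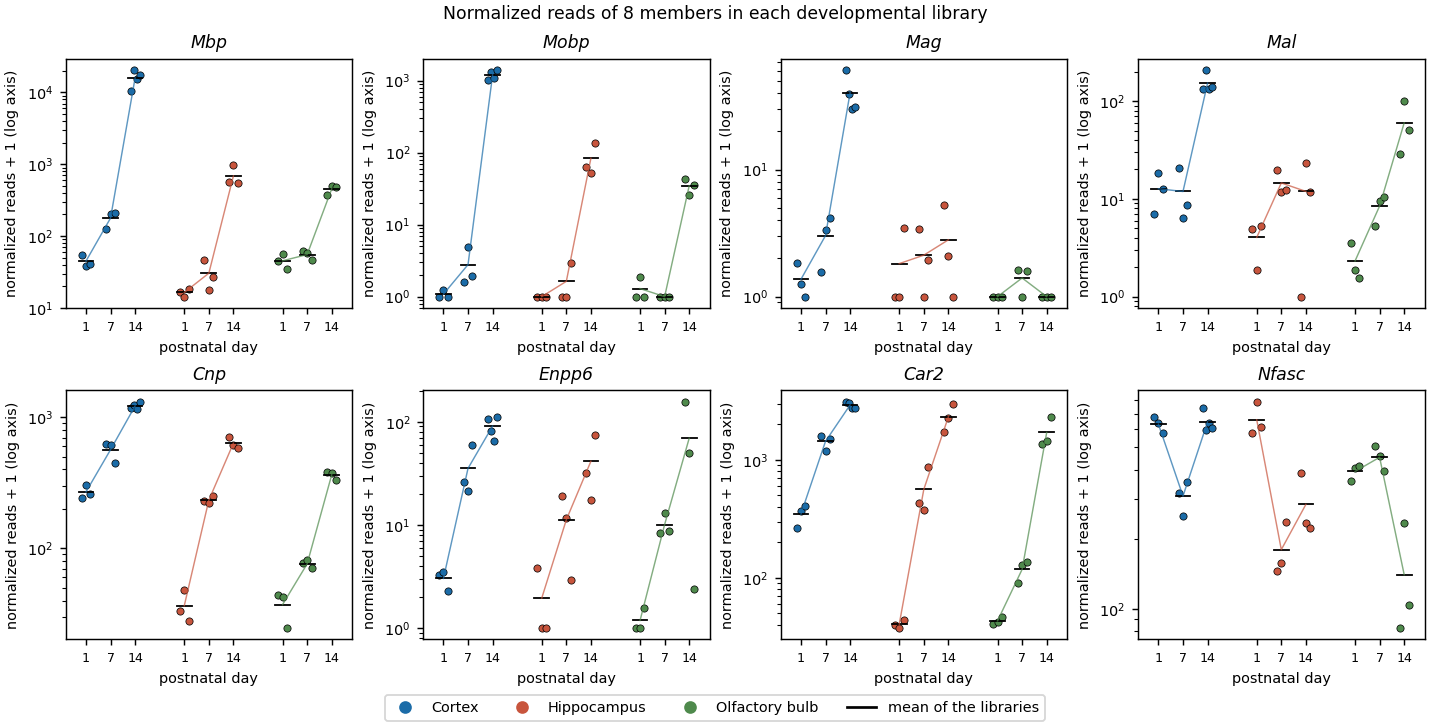
Normalized reads plus 1 (log axis) of 8 members in each library at postnatal days 1, 7 and 14, for cortex, hippocampus and olfactory bulb; points are libraries and lines join the means. Mobp stays near 0 at P1 and P7 and stands above both at P14 in each region, and the P14 Mag libraries of cortex lie between 29.0 and 59.4.

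The 3 tested lipid enzymes were called higher already from P1 to P7 in cortex. Ugt8a, which makes galactosylceramide, was 23.9, 23.9 and 21.6 at P1, 73.9, 51.8 and 64.4 at P7, and 300.4, 273, 182 and 216 at P14. Fa2h, which hydroxylates the fatty acids of myelin lipids, was 0, 0 and 1.03 at P1, 11.5, 10.1 and 10.4 at P7, and 37.1, 56.6, 61.5 and 34.8 at P14. Aspa, which splits N-acetylaspartate and so supplies acetate for lipids, was 3.41, 6.55 and 18.7 at P1, 38.7, 52.6 and 46.2 at P7, and 77.2, 59.7, 74.7 and 59.2 at P14. None of the 3 overlapped between successive ages. Fa2h passed the filter only through its P14 libraries, which favoured its rise to P14. The log2 changes from P1 to P7 were 1.40 ± 0.21 for Ugt8a, 3.20 ± 0.44 for Fa2h and 2.42 ± 0.42 for Aspa. Aspa was not called from P7 to P14 (0.55 ± 0.39, limma adjusted p = 0.262). Gal3st1, which adds the sulfate of sulfatide, was 3.13, 1.26 and 2.31 at P1 and 4.41 to 15.1 at P14 and was not tested.

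Among the 6 regulators and stage genes, 5 were tested in cortex and 5 were higher at P14 than at P1. Enpp6, a choline phosphodiesterase that marks newly forming oligodendrocytes, was 2.27, 2.52 and 1.28 at P1, 24.8, 20.1 and 58 at P7, and 104, 80.5, 64.6 and 109 at P14. Bcas1, which marks the premyelinating stage, was 31 to 47.7 at P1, 104 to 166 at P7 and 504 to 651 at P14. Gpr37, a receptor of oligodendrocytes, was 5.97 to 7.3, 22.4 to 24 and 66.2 to 88. Myrf, the transcription factor that switches on sheath genes, was 5.54 to 10.2, 10.4 to 22.2 and 40.9 to 51.9. Each of these 4 was called higher at both steps, although the Myrf call from P1 to P7 was lost in 4 of 10 fits with a library left out (adjusted p up to 0.156). Adamts4, a secreted protease, was 6.3 to 10.8 at P1, 3.63 to 7.5 at P7 and 15.1 to 24.2 at P14, with a log2 change of 1.58 ± 0.39 at the second step. Its call from P1 to P14 was lost without cortex P1 replicate 2 or 3 (adjusted p up to 0.0781). Adamts4 passed the filter only through its P14 libraries, which favoured its rise. Nkx6-2, a transcription factor, was at most 1.73 in every developmental library.

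Of the 13 members shared with other cells, 11 were tested in cortex, 8 were higher at P14 than at P1 and 1 was lower. Car2, a carbonic anhydrase, was 265, 368 and 405 at P1, 1594, 1200.0 and 1517 at P7 and 3111, 3056, 2762 and 2760.4 at P14. Cryab, a small heat shock protein, was 25, 27.5 and 28 at P1, 51.8 to 75.6 at P7 and 467 to 613 at P14. Both rose at both steps. Sirt2, a deacetylase, was 530.4 to 614 at P1, 432 to 593 at P7 and 1673 to 1866 at P14, and was called at the second step only. Qdpr, which regenerates tetrahydrobiopterin, was 67.3 to 81.1, 49.6 to 82.5 and 141 to 179, also called at the second step only. Astrocyte markers moved with these genes, and 9 of 10 were called higher at P14 than at P1. Microglial markers did too, with 8 of 8 called higher and summed levels of 323 to 617 at P1 and 1186 to 2659.7 at P14. The part of these cells in the values of the members was not tested.

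Of the remaining shared members, Plekhb1, Trf and Gsn were called higher from P7 to P14 in cortex. Trf, which carries iron, was 15.1 to 38.8, 15.9 to 43.3 and 53.3 to 177 at P1, P7 and P14, and Gsn, an actin-severing protein, was 15.3 to 25.9, 15.4 to 25.4 and 42.3 to 62.9. Plekhb1 was 101 to 162, 140.5 to 261 and 544 to 582. The Trf call of this step was lost without cortex P7 replicate 3 (adjusted p = 0.0733). Evi2a was 8.72 to 13.1, 17.9 to 42.5 and 15.5 to 43.6, and its call from P1 to P14 was lost in 4 of 10 fits with a library left out. The untested Tmem125 and Ppp1r14a reached at most 10.2 and 2.27 in cortex.

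Ndrg1 and Nfasc fell in cortex at the first step. Ndrg1, a stress-related protein of Schwann cells and oligodendrocytes, was 96, 77.6 and 68 at P1, 27.7, 8.51 and 21.8 at P7 and 21.2, 18.2, 22.4 and 8.83 at P14. From P1 to P14 it changed by -2.19 ± 0.40 on the log2 scale (limma adjusted p = 0.000286). Nfasc, a cell adhesion molecule with a neuronal form at the node of Ranvier and a glial form beside it, was 679, 636 and 575 at P1. It was 317, 251 and 353 at P7, and 742, 596, 636 and 605 at P14. It changed by -1.05 ± 0.13 and then by 1.08 ± 0.12, and its P1 and P14 levels overlapped. Neuronal markers were called lower for 6 of 8 genes between P1 and P14, with summed levels of 1976 to 2773 at P1, 601 to 2112 at P7 and 209.7 to 424 at P14. Their part in the Nfasc values was not tested.

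Apod, apolipoprotein D, rested on 1 library in cortex. At P1 it was 3.13, 189.9 and 152, against 79.2 to 123 at P14. Replicate 1 of P1 was low, and the difference between P14 and P1 was 1.02 ± 0.95 with all libraries and was not called. Without that replicate it became -0.77 and was called lower (limma adjusted p = 0.0203). Markers of meningeal fibroblasts were also low in that library, where they summed to 52.3 against 1202 and 1481 in the other P1 libraries.

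In the hippocampus fewer members passed the filter. Between P1 and P14 14 of 21 tested members rose and 2 fell, where 21% of 11578 genes were higher and 28.5% lower. The median log2 change was 3.22 over members and -0.29 over all genes. Mbp was 15.7, 13.4 and 17.2 at P1, 45.9, 16.9 and 25.5 at P7, and 560.0, 963 and 543 at P14. Mobp was 0 in all P1 libraries, 0, 0 and 1.89 at P7, and 61.3, 50.7 and 136 at P14. For both genes P14 lay above P1 and P7 without overlap. Here too Mobp passed the filter only through its P14 libraries, which fixed its rise. Enpp6, Aspa and Gsn, counted among the 14, also reached the minimum mean only with their P14 libraries. Cnp was 32.4, 47.2 and 27, 228, 219.6 and 249 and 707, 612 and 579 at the 3 ages and was called at each step. Gpr37 was 2.85, 2.23 and 0 at P1, 35.6, 27.5 and 38.8 at P7 and 252, 189.6 and 159 at P14. Its log2 change from P1 to P14 was 6.42 ± 0.54, with a limma adjusted p of 1.97e-06, the largest of the tested members there.

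In the same hippocampal libraries Mog, Opalin, Mag and Cldn11 were near 0. At P14 Mog and Opalin were 0 in all 3 libraries, Mag was 4.3, 1.1 and 0, and Cldn11 was 2.15, 2.21 and 0. Mal was 0, 22.1 and 10.7, and the lipid enzyme Fa2h was 0, 16.5 and 0. Ermn was 29, 33.1 and 10.7 at P14, above its 1.42 to 2.67 at P1 in every library. These 7 genes missed the minimum mean and were not tested, so the counts above cover only members that passed. The hippocampal P14 libraries held 2539583 to 4248087 reads, and those of cortex P14 held 7838934 to 15008466.

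Nfasc and Ndrg1 were lower at P14 than at P1 in hippocampus. Nfasc was 576, 788 and 611 at P1, 145, 158 and 236 at P7, and 388, 235 and 224 at P14, a log2 change of -1.25 ± 0.25 (limma adjusted p = 0.00142). Ndrg1 was 22.1, 19.2 and 14.7 at P1 and 0, 0 and 5.37 at P14, and lost its call with quantile scaling (-1.53, adjusted p = 0.179). Between P7 and P14 Evi2a, encoded within an intron of Nf1, was called lower, from 41.1, 13.1 and 12.3 to 8.6, 1.1 and 0. The Evi2a call was lost in 3 of 9 fits with a library left out (adjusted p up to 0.113), and the Ndrg1 call of the same step in 3 of 9 (up to 0.0962). With all libraries the Evi2a call was also lost by edgeR, in a fit of only the ages compared and with quantile scaling (change as small as -0.77, adjusted p up to 0.488). The Ndrg1 call was lost in the latter 2 settings (-0.58 and adjusted p = 0.671 with quantile scaling). The reads of Evi2a cannot be told apart from those of Nf1 where counting ignored strand.

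In the olfactory bulb 14 of 22 tested members rose between P1 and P14 and 1 fell, where 24.8% of 11490 genes were higher and 31.4% lower. The median log2 change was 2.04 over members and -0.24 over all genes. Mbp was 43.7, 55 and 34.2 at P1, 61.4, 56.5 and 45.1 at P7, and 372, 504 and 487 at P14. Mobp was 0, 0.881 and 0 at P1, 0 in all P7 libraries, and 41.7, 24.8 and 34.7 at P14. Mal was 2.51, 0.881 and 0.552 at P1, 4.3, 8.58 and 9.49 at P7, and 27.8 to 99.2 at P14. For these 3 genes P14 lay above both earlier ages. Of these, Mobp and Mal passed the filter only through their P14 libraries, which fixed their rise. So did Aspa, Enpp6 and Cryab, which count among the 14 that rose. Car2 rose from 39.8, 41 and 45.8 to 89.7, 127 and 134, and then to 1359.6, 1436 and 2327. Mag was 0, 0 and 0 at P14 and Mog 0, 11 and 0, both untested.

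Aspa and Enpp6 were also higher in the bulb at P14. Aspa was 5.74, 0.44 and 0.552 at P1, 12.3, 12.2 and 12.5 at P7, and 101, 57.9 and 147 at P14, a log2 change from P1 of 5.29 ± 0.62. Enpp6 was 0, 0 and 0.552 at P1, 7.37, 12.2 and 7.71 at P7, and 155, 48.2 and 1.39 at P14. Its P14 libraries differed widely, and only the change from P1 to P14 was called (4.51 ± 1.21, limma adjusted p = 0.00822). Aspa and Enpp6 passed the filter only through their P14 libraries, so these rises are no test. Nfasc was the member that fell, from 356, 408 and 413 at P1 and 504, 458 and 395 at P7 to 81.5, 234 and 103 at P14 (-1.64 ± 0.31 from P1). Apod was 155, 49.3 and 43.6 at P1 and 268, 324 and 255 at P14, a log2 change of 2.00 ± 0.43 (limma adjusted p = 0.00216). Markers of olfactory ensheathing cells, the glia of the olfactory nerve, had summed levels of 21 to 65.6 at P1 and 157 to 386 at P14, with 4 of 4 tested called higher. Astrocyte markers went from 5549 to 7447 at P1 to 143515 to 164163 at P14. Microglial sums were 16.5 to 39.1 and 221 to 379, and endothelial sums 6.09 to 12.1 and 67.6 to 554. Neuronal markers fell, from 2959 to 3332 at P1 to 525 to 961 at P14. Their part in the values was not tested.

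Across the regions 12 members were called higher at P14 than at P1 in all 3: Aspa, Bcas1, Car2, Cnp, Cryab, Enpp6, Gpr37, Mbp, Mobp, Plekhb1, Qdpr and Sirt2. They were 12 of the 25 called in cortex and 12 of the 14 called in each other region. Of the 34 members 20 were tested in all 3 regions, and of all 10838 genes so tested 14% were called higher in each. Mobp passed the filter in each region only through its P14 libraries. Enpp6 and Aspa did so in hippocampus and olfactory bulb, and Cryab in the bulb. The filter favoured these rises, and they count among the 12. Levels of different regions were scaled separately and were not tested against each other.

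**Figure D2:**
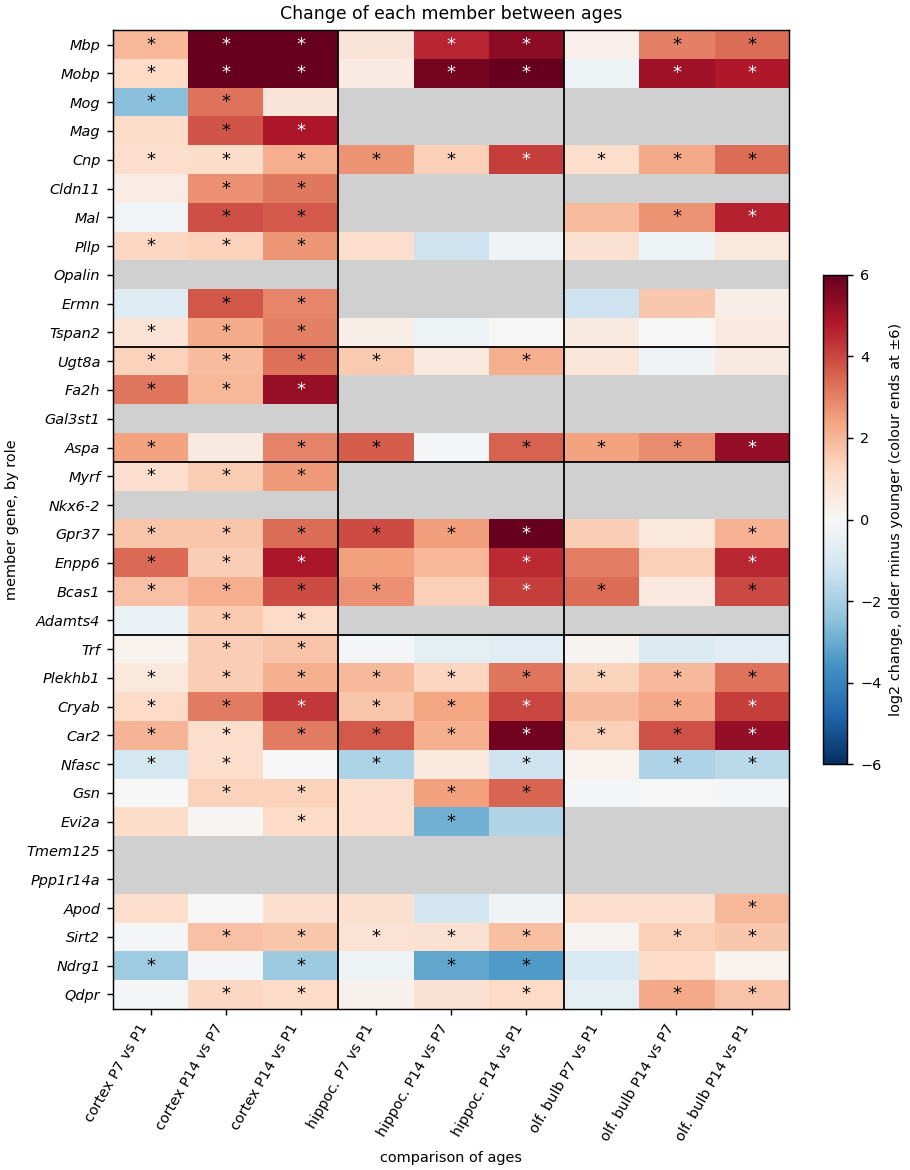
Log2 change (older minus younger age) of each member in the 9 comparisons of ages; rows are genes by role, columns are comparisons by region, colours end at -6 and 6, grey marks members too low to test, and an asterisk marks a limma adjusted p under 0.05. In cortex 25 members carry an asterisk for a rise from P1 to P14, and more cells are grey in hippocampus and olfactory bulb.

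Counted by step, 15 members rose in cortex from P1 to P7 and 3 fell, where 15.6% and 18.1% of all genes did. From P7 to P14 the cortical counts were 25 and 0 (18.6% and 31.3% of all genes). The hippocampus had 9 members higher and 1 lower at the first step (11.2% and 6.92% of all genes), then 9 and 2 at the second (12.5% and 17.7%). The bulb had 5 members higher and 0 lower at the first step (7.59% and 2.98% of all genes), then 10 and 1 at the second (20.4% and 26.6%). The 5 members called in the bulb from P1 to P7 were Aspa, Bcas1, Car2, Cnp and Plekhb1. Their count became 3 without P1 replicate 3, P7 replicate 1 or P7 replicate 2 of the bulb. Plekhb1 in cortex was called at this step (0.62 ± 0.20, limma adjusted p = 0.0322), but not in 4 of 10 fits with a library left out. In hippocampus the Ugt8a call of the first step was lost in 6 of 9 such fits, and in the bulb the Aspa call in 5 of 9.

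The part of the log2 rise from P1 to P14 that was present at P7 differed among members in cortex. It was 81.4% for Aspa, 69.8% for Enpp6, 66.6% for Car2 and 61.4% for Fa2h. It was 23.3% for Mbp, 22.2% for Mag, 13.8% for Cldn11 and 11.7% for Mobp, and below 0 for Mal (-4.54%) and Ermn (-26%). In hippocampus Mbp had 14.7% and Mobp 8.17%, while Cnp had 65.3% and Bcas1 65.7%. In the bulb it was 85.1% for Bcas1, 70.0% for Gpr37 and 68.5% for Enpp6. It was 27.2% for Car2 and 9.04% for Mbp there, and below 0 for Mobp (-6.35%) and Qdpr (-31.1%).

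A contrast chosen after seeing the data compared the 2 steps directly, as the change from P7 to P14 minus that from P1 to P7. In cortex it was above 0 for 11 of 29 tested members and below 0 for 1, where 9.78% and 13.2% of all genes were so called. Of the 10 tested sheath genes 7 were above 0, and of the 3 tested lipid enzymes 0. Of those 7, Mobp, Mog, Ermn and Cldn11 passed the filter only through their P14 libraries, which favoured a value above 0. The lipid enzyme Fa2h passed the filter in the same way. These counts are therefore no test of sheath against lipid genes. The values were 7.75 ± 0.66 for Mobp, 5.76 ± 0.99 for Mog, 4.51 ± 0.40 for Mbp, 4.48 ± 0.60 for Ermn and 4.01 ± 0.74 for Mal. For Mog, and for Nfasc (2.12 ± 0.22), the first step was a fall. Mobp, which passed the filter only through its P14 libraries, lost the call with edgeR (adjusted p = 0.132). Cldn11 (2.30 ± 0.77) and Tspan2 (1.39 ± 0.46) lost the call in 8 and 7 of 10 fits with a library left out (adjusted p up to 0.165 and 0.239). Car2 was below 0 (-1.03 ± 0.25), and not called without cortex P7 replicate 1 (limma adjusted p = 0.0596). Qdpr lost its call without the same replicate (0.0736).

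In hippocampus 3 of 21 members had this contrast above 0, Mbp (3.78 ± 0.66), Mobp (5.23 ± 1.23) and Nfasc (2.53 ± 0.43), where 1.52% of all genes did, and 0 had it below 0 (4.47% of genes). Nfasc fell at the first step there and was not called at the second (0.64 ± 0.25, limma adjusted p = 0.0732). Without hippocampus P7 replicate 2 no member was called. The Mobp call was also lost with edgeR, with DESeq2 and with a pseudocount of 0.1 (adjusted p up to 0.955). In olfactory bulb the contrast was above 0 for Mbp, Mobp, Car2, Sirt2 and Qdpr (5 of 22, background 6.22%) and below 0 for Bcas1 and Nfasc (background 9.86%). The calls of Bcas1 and Nfasc were lost in 5 and 6 of 9 fits with a library left out, and that of Sirt2 in 2 of 9 (adjusted p up to 0.0575). The Mobp call was lost with a pseudocount of 0.1 (adjusted p = 0.102).

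**Figure D3:**
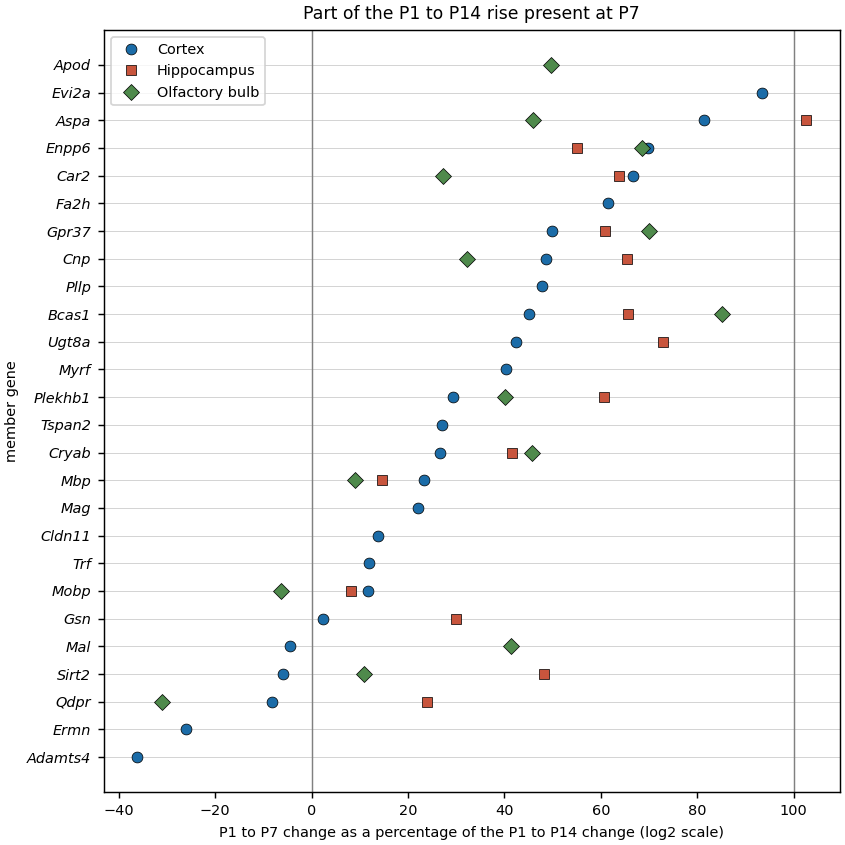
Change from P1 to P7 as a percentage of the change from P1 to P14 (log2 scale) for members called higher at P14 than at P1; each row is a gene and each symbol a region, with 100% meaning that P7 had reached the P14 level. In cortex Aspa lies at 81.4% and Mobp at 11.7%.

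Oligodendrocyte genes outside the 34 members and precursor markers were counted the same way. Of 30 further oligodendrocyte genes, 20 were tested in cortex, and between P1 and P14 11 rose and 3 fell. In hippocampus 6 of 18 were higher and 2 lower, and in olfactory bulb 11 of 17 higher and 2 lower. The 7 precursor markers, among them Pdgfra and Cspg4, had summed levels at P1, P7 and P14 of 385 to 491, 876 to 1316 and 294 to 599.8 in cortex. In hippocampus these sums were 90.3 to 168, 574 to 892 and 90.3 to 329.7, and in olfactory bulb 92.7 to 123, 439.6 to 923 and 339.9 to 411. From P1 to P7 4 of 6 tested precursor markers were called higher in cortex, and from P7 to P14 3 were called lower.

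At P28 no member was called between Gabbr1 control and cKO in any region. None passed among 29 tested in the cortex, 30 in the hippocampus and 28 in the bulb (0 each), by limma, by edgeR's quasi-likelihood test and by DESeq2, and 0 without either library of low Rn45s share. Among all genes tested limma called 0.00982% of 10188 for the cortex, and 0% of 11639 and 0% of 11539 for the other two regions. At an unadjusted p under 0.05, limma and edgeR each gave 0 members in cortex, 1 in hippocampus (Gpr37) and 2 in olfactory bulb (Enpp6 and Nfasc), and DESeq2 gave 0, 5 and 2. Of all genes, 2.17% for the cortex, 2.54% for the hippocampus and 3.02% for the bulb lay under that p by limma. These shares were 2.22%, 2.68% and 4.89% by edgeR, and 2.42%, 4.28% and 5.37% by DESeq2. For the cortex the median log2 difference over the members was 0.00. For the hippocampus it was 0.64 (all genes -0.04) and for the bulb 0.51 (all genes 0.02). Members with a difference above 0 numbered 15 of 29 in cortex by limma, 6 by edgeR and 5 by DESeq2. In the bulb 17 of 28 lay above 0 by limma and 11 by each of the others, and in hippocampus 25 of 30 by limma and 26 by each of the others. On simulated data of the same design, the fit recovered 52% of genes changed 4-fold for the cortex, 41% for the hippocampus and 48% for the bulb, and 81%, 70% and 73% of those changed 8-fold. The changed genes were drawn at random from all tested genes, and the simulation held no rounds of deposit. Shares for the members themselves were not worked out.

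The cortical libraries of each genotype spread widely. Mbp was 2015, 1855, 6937 and 3241 in controls and 1677, 1727, 2024 and 3662 in cKO, a log2 difference of -0.49 ± 0.36. Mobp was 172, 119, 772 and 390.0 in controls and 269, 213, 385 and 482 in cKO (0.19 ± 0.45). Mal was 41.2, 45.5, 1131 and 824 in controls and 20.2, 202, 706 and 904 in cKO (0.15 ± 1.14). No cortical member was without overlap between genotypes, where 0.864% of all tested genes were higher so and 1.03% lower. For these 3 genes the groups overlapped, and control replicate 3 was the highest of the 8 libraries.

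In hippocampus 25 of 30 members had a difference above 0 (cKO minus control), with overlap in most. Mbp was 1708 and 2078 in controls and 2511, 3077, 2274 and 2158 in cKO, without overlap (0.40 ± 0.28, limma adjusted p = 0.936). Mobp was 166 and 297 against 304, 537, 286 and 669 (0.92 ± 0.42). Gpr37 was 79 and 107 against 150.1, 374, 133 and 170.2, also without overlap (1.03 ± 0.45). Every Bcas1 value of cKO, at 107, 80.9, 168 and 168, was below the controls at 174 and 187. These were 2 members higher and 1 lower without overlap, where 7.08% and 7.92% of all tested genes were so. Enpp6 was 15.5, 1060.2, 96.6 and 191 in cKO and 129 and 103 in controls.

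Markers of other cells also varied among these hippocampal libraries. Choroid plexus genes, Ttr among them, summed to 140471 and 68603 in controls and to 51304, 11675, 72457 and 127985 in cKO. Endothelial markers summed to 45.4 to 67.6 in controls and 116 to 300.4 in cKO, and microglial markers to 48 to 61.8 against 77.5 to 654. Astrocyte markers had a median log2 difference of 0.66 over 10 genes, of which 6 were higher in cKO without overlap. For neuronal markers the median was 0.69, with 0 of 6 without overlap. The further oligodendrocyte genes outside the members had 0.25, with 6 of 24 higher without overlap. None of these genes was called. Their part in the member values was not tested.

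In olfactory bulb control replicate 3 stood above the others for sheath genes, with a summed level of 1269, 684 and 4817 in controls 1 to 3. Mbp was 768, 376 and 1733 in controls and 468, 659 and 498 in cKO (-0.57 ± 0.45). Mobp was 41.3, 54.5 and 361 in controls and 50.7, 70.7 and 90.6 in cKO. Mal was 68.9, 64.7 and 879 against 268, 371 and 407. The groups overlapped for these 3 genes. Enpp6 was 30.9, 37.8 and 23.2 in cKO and 58.6, 151 and 82.3 in controls, a difference of -1.55 ± 0.46 with a limma adjusted p of 0.877. It was the 1 member lower without overlap, where 4.71% of all tested genes were, and 0 members were higher without overlap (5.3% of genes). Apod was 1208, 1757 and 3422 in controls and 1832, 1804 and 3453 in cKO, and had the highest level per length among the members in bulb controls (826 normalized reads per kb).

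**Figure D4:**
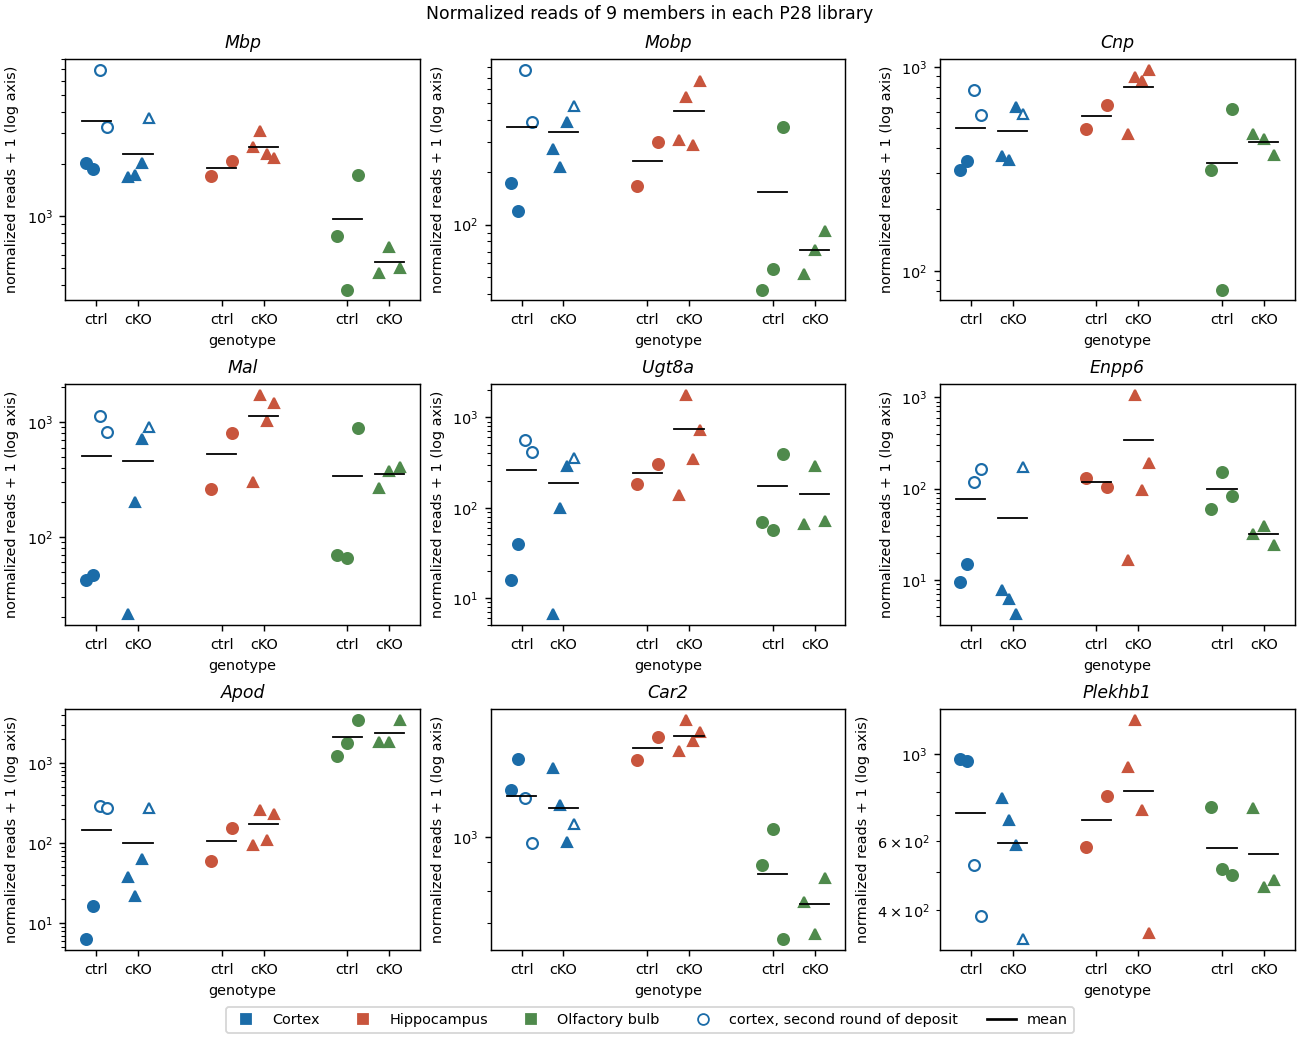
Normalized reads plus 1 (log axes) of 9 members in each P28 library by genotype and region, each point a library, with open symbols for the cortical libraries of the second round of deposit. In cortex the open symbols of Enpp6 lie at 118 to 171 and the filled ones at 3.2 to 14, in both genotypes.

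Within the P28 cortex the members differed between rounds of deposit, a comparison added after seeing the data. Of 29 tested members 18 were higher and 1 lower in the 3 second-round libraries than in the 5 first-round ones, in a fit with genotype as a term, where 3.87% of 10188 genes were higher and 5.76% lower. The median log2 difference was 2.07 over members and 0.04 over all genes. Of the 11 sheath genes 10 were called higher. Enpp6 and Mag, both called, averaged 7.53 and 7.34 in the first round and passed the filter only through the second-round libraries. The filter favoured their difference, and they count in these numbers. In cortex, tamoxifen in the labels, the style of the labels and any other trait of these libraries go together and cannot be told apart. Their sample numbers run together with those of hippocampal cKO replicate 4 and of replicate 3 of both bulb genotypes. In these Rn45s held 28.6% of reads in hippocampus, and 28.8% (control) and 31.3% (cKO) in the bulb. The other P28 libraries of these regions held 33.8% to 38.0%, apart from the libraries of low Rn45s share. The part of the number order in the values was not tested.

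Mbp was 1677 to 2024 in the first round and 3241 to 6937 in the second, a log2 difference of 1.18 ± 0.18 (limma adjusted p = 0.00053). Enpp6 was 3.2, 5.24, 6.73, 8.45 and 14 in the first round and 118, 163 and 171 in the second (4.12 ± 0.53, limma adjusted p = 0.000112). The 2 rounds did not overlap for either gene. Enpp6 passed the filter only through its second-round libraries, so its difference is no test. Mal was 20.2 to 706 and 824 to 1131 (3.67 ± 0.70). Mog was 0 to 55.9 and 96.8 to 137 (4.22 ± 1.08). Trf, the iron carrier transferrin, was 7.01 to 55.9 and 141 to 202 (3.14 ± 0.43). Those 3 genes did not overlap between rounds either. Ugt8a was 5.61 to 289 and 356 to 565 (3.57 ± 0.79), and Apod 5.28 to 62.3 and 270.4 to 293 (3.97 ± 0.46). Fa2h was 0 to 134 and 67.8 to 141 and was called (4.66 ± 1.23) although the rounds overlapped. The Fa2h call was lost in 4 of 8 fits with a library left out (adjusted p up to 0.108), with edgeR and without a trend (up to 0.194). The Mog call was lost in 4 of 8 such fits (up to 0.0822), with DESeq2, without a trend and with a pseudocount of 0.1 (up to 0.185).

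The shared members Car2, Sirt2, Cryab and Qdpr were not called between rounds. Car2 was 977 to 1380.1 in the first and 973 to 1174 in the second round (-0.20 ± 0.14). Plekhb1, a protein with a pleckstrin-homology domain, went the other way, from 585 to 970.0 down to 336 to 518 (-1.06 ± 0.16, limma adjusted p = 0.000399). Of the precursor markers 1 of 5 tested was higher, and of the 30 further oligodendrocyte genes 6 of 23.

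Markers of other cells moved with the round as well. Microglial markers (8 genes) summed to 96.9 to 147 in the first round and 573 to 1526 in the second, with 6 of 7 tested called higher. Meningeal fibroblast markers summed to 100.4 to 282 and 423 to 730.2, and endothelial markers to 6.73 to 148 and 143 to 248. Astrocyte markers summed to 242924 to 308751 and 154394 to 215854, with 2 of 10 called lower. Rn45s held 33.4% to 35.8% of reads in the first round and 27% to 28% in the second, without overlap. The part of these in the result was not tested.

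The 19 calls rested on few libraries and on the variance model. Their number was 11 without cKO replicate 4, 12 without control replicate 3 and 11 without control replicate 4. It was 3 with limma fitted without a mean-variance trend, which called 48 of all 10188 genes higher and 2 lower. Within the first round cKO replicate 3 had the highest summed sheath level, with 2485, 2808, 4712 and 6871 in cKO 1 to 4 and 2647, 2557, 11221 and 6325 in controls 1 to 4. With the round as a covariate the median genotype difference over the members was 0.31, with values from -0.55 (Myrf) to 2.65 (Fa2h), and 0 of 29 were called (lowest limma adjusted p 0.743).

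**Figure D5:**
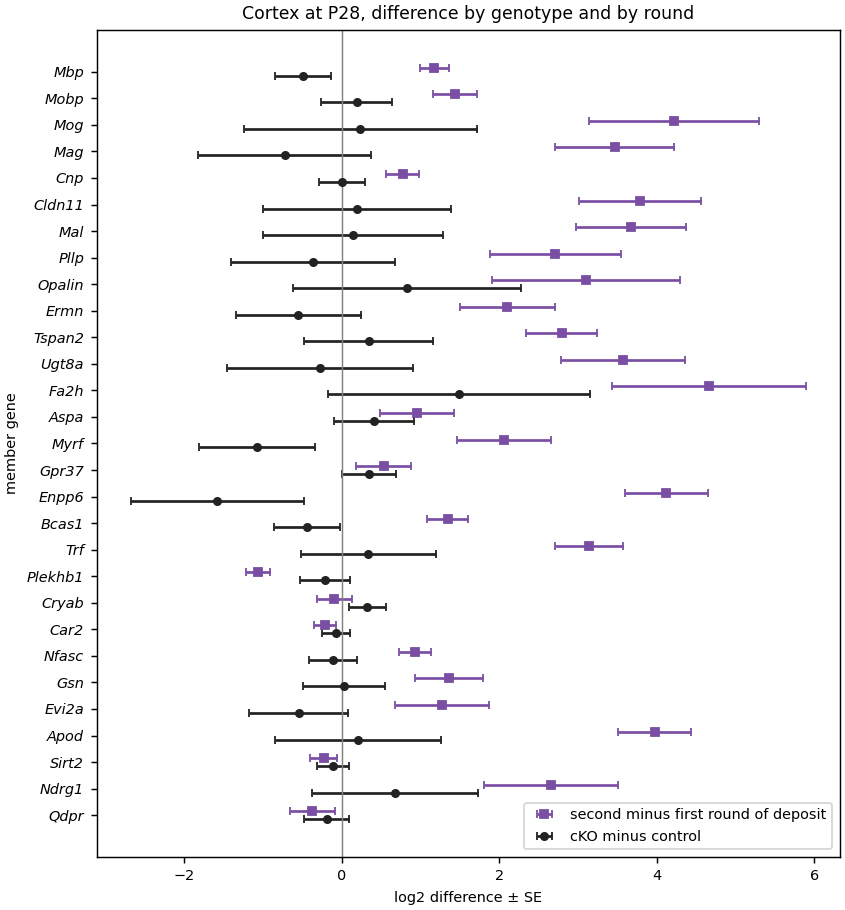
Log2 difference ± SE of each tested member in the P28 cortex, by round of deposit (squares, second minus first) and by genotype (circles, cKO minus control). Of the 29 members 18 are called higher and 1, Plekhb1, lower by round, and 0 by genotype.

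Ratios between members within a library do not depend on the scaling between libraries. In cortex P14 there were 0.776 to 1.26 Mal reads for each 100 Mbp reads, and at P28 2.05 to 25.4 in controls and 1.2 to 34.9 in cKO. In hippocampus the ratio of Mal to Mbp was 0 to 2.29 at P14 and 15.3 to 38.2 in P28 controls, against 12 to 68 in cKO. In olfactory bulb it was 7.49 to 19.7 at P14 and 8.97 to 50.7 in P28 controls. The bulb cKO libraries had 56.3 to 81.7, above every control there. The ratios of Mobp, Mog and Car2 to Mbp overlapped between genotypes in the bulb. In hippocampus there were 52.7 to 71.5 Car2 reads for each 100 Mbp reads in cKO, below the 72.6 to 80.4 of controls. No share over all gene pairs was worked out for such differences. Mobp reads for each 100 Mbp reads ranged from 6.47 to 9.54 in cortex P14. In the P28 cortex they were 6.42 to 12 in controls and 12.3 to 19 in cKO, without overlap. P14 and P28 libraries are in different tables, and these ratios were not tested.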

How the data were processed

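RNA of astrocytes from mouse cortex, hippocampus and olfactory bulb was sequenced as 48 bulk libraries, prepared with a low-input total RNA kit per the labels' protocols. The submitters' processing notes name STAR 2.5.0a, DESeq2 1.20.0, FastQC, MultiQC and mm10, without roles. The deposited signal values in the 6 tables are read counts per gene divided by 1 factor per library, as the values themselves show: 100% were whole reads within 0.1 read once the step of each library was recovered.

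The 34 members and all gene lists were chosen with earlier results of these data known. All members could be named, from other lists the up to 3 most abundant genes and any further oligodendrocyte gene, and for P28 the 5 genes most correlated with the sheath genes. One gene that these rules select is not reported here. Symbols turned into dates (27) were restored. Within each table, genes with a mean of at least 10 were tested with limma 3.58.1 (R 4.3.3, mean-variance trend) on log2(value + 1), all groups of a table in 1 fit, with Benjamini-Hochberg adjustment over all tested genes and a threshold of 0.05. Log2 changes are on this scale and understate changes of low genes. Levels of 3 reads or fewer served as a floor for folds. The tables were scaled separately and were not tested against each other. As alternatives the pseudocount was set to 0.1 or 8, the filter was dropped or raised to a mean of 100, and the fit was repeated with TMM and with quantile scaling, no trend, edgeR 4.0.16 and DESeq2 1.42.0 on the recovered reads, only the ages compared, each replicate left out and, in the P28 cortex, the round of deposit as a covariate. The fit was tested on simulated data. Reads ranged from 1773226 to 15008466 per library.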

Additional observations from a re-analysis of the deposited data

Results flagged for a closer look

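Among 132 groups of values of members, 7 held a library far from the rest of its group, near the 1 in 20 that chance gives. Only groups of 4 libraries were searched, which were cortex P14, both P28 cortical genotypes and the hippocampal cKO. Groups of 2 or 3 libraries could not be flagged. Mal in cortex P14 was 206 in replicate 2 and 132 to 138 in the others. In the hippocampal cKO, replicate 2 had 374 normalized reads of Gpr37 (others 133 to 170.2), 1060.2 of Enpp6 (others 15.5 to 191) and 325 of Sirt2 (others 544 to 584). That is the library in which Rn45s held 0.594% of reads. In the cortical cKO, replicate 4 had 171 normalized reads of Enpp6 (others 3.20 to 6.73), 59.5 of Myrf (others 4.49 to 10.4) and 272 of Apod (others 21.0 to 62.3). It is the 1 cKO library of the second round.

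For 3 genes a step went opposite ways in 2 regions, without overlap of the ages in either, and the difference between regions was not tested. From P1 to P7 Qdpr changed by 0.28 on the log2 scale in hippocampus and by -0.54 in olfactory bulb. From P7 to P14 Pllp changed by 1.37 in cortex and by -1.26 in hippocampus. At the same step Nfasc changed by 1.08 in cortex and by -1.84 in olfactory bulb. Neither Qdpr change was called, nor was the Pllp change in hippocampus, while both Nfasc changes were. The share of all genes without overlap at these steps was not worked out.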

How the results depend on the processing

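No paired analysis was possible because no number in the labels is shared between control and cKO libraries of a region, or between ages. No alternative called a member between genotypes at P28, with 0 in every fit that left out 1 library. A minimum mean of 100 tested fewer genes and lowered the counts of members called higher. From P1 to P14 it left 11 in cortex (25 with the usual filter), 6 of 14 in hippocampus and 6 of 14 in the bulb. From P7 to P14 it left 12 in cortex (25) and 5 in olfactory bulb (10), and from P1 to P7 the cortex kept 8 of 15, the hippocampus 5 of 9 and the bulb 3 of 5. It left 11 of the 19 calls between rounds, and 7 of 11 in cortex and 3 of 5 in olfactory bulb for the contrast of the 2 steps. In the bulb from P1 to P7, DESeq2 called 8 and a fit of only the ages compared 9, and for that contrast quantile scaling called 8; the cause was not tested. The calls between rounds fell to 3 without a trend. Leaving out 1 library gave 11 to 21 calls between rounds, 3 to 7 in the bulb from P1 to P7, and 0 to 3 for the contrast of the 2 steps in hippocampus. The log2 change of Apod in cortex from P1 to P14 ranged from -0.77 to 2.00 with a library left out. Quantile scaling moved the median change of all genes in cortex from P1 to P14 from -0.27 to 0.03, and TMM to -0.05. Of 3651 values of single genes under other settings, 3504 kept direction and call, 64 lost the call, 83 gained it and 0 reversed. Of 3520 with a library left out, 3362 kept both, 120 lost the call, 37 gained it and 1, that of Apod, reversed. Olfactory bulb P14 libraries held 1773226 to 2669394 reads and hippocampal ones 2539583 to 4248087, which limits what can be said of members near 0 there.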

Other observations

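Over the libraries of each P28 table, a few genes outside the members had log2 values most correlated with the mean of the sheath genes, given as a description. In cortex (8 libraries) these were Trp53i11 (Pearson r = 0.992), Il6ra (0.980), Mars (0.979) and Slc6a6 (0.977). In hippocampus (6 libraries) Bicd2 had 0.998 and Lgi3, an oligodendrocyte gene, 0.990. In olfactory bulb (6 libraries) Pex5l had 0.991 and Arfgap3 0.983. These genes were picked for the highest correlation among all tested genes, and the libraries of a table share their genotypes and, in cortex, their rounds of deposit.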
